A study of Mus musculus with 19 samples.

Results

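The miR-200 family was examined on 19 one-color miRNA microarrays, of which 7 held RNA of the nucleus accumbens, 6 of the soleus and 6 of the extensor digitorum longus (EDL). All mature mouse (mmu) arms with the stems miR-200a, miR-200b, miR-200c, miR-141 and miR-429 were taken, which gave 10 arms, 5 from the 3′ side (3p) and 5 from the 5′ side (5p) of the hairpins, among 1136 miRNAs on the array. The family was chosen by its spread between the nucleus accumbens arrays, where signals of single members differed by more than 6 log2 units, so that spread is a description here and was not tested.

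The study compared high-active with low-active inbred mice at rest, to ask whether miRNA levels differ between the strains before any running. High-active mice were C57L/J and low-active mice were C3H/HeJ, all male per the study's methods, 9 weeks old at harvest, untreated, and housed singly from 8 weeks with a running wheel that was locked. The nucleus accumbens, a part of the ventral striatum, gave 4 high-active and 3 low-active arrays, the soleus 4 and 2, and the EDL 2 and 4, from 8 mice with at most 1 array per mouse and tissue. Each activity class is 1 inbred strain, so activity and every other difference between these strains cannot be told apart.

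The miR-200 family is known for its high levels in epithelial cells, where its members repress the transcription factors Zeb1 and Zeb2 and thereby keep genes of cell adhesion such as E-cadherin expressed. Within the mouse nervous system the family is known from the olfactory system. A miRNA finds its targets mostly through the seed, a short stretch near its 5′ end, and the family falls into 2 seed groups that differ by a single base.

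The mature sequences are shown because the seed groups cut across the 2 genomic clusters, so that signals can be compared by place and by sequence. They were taken from RefSeq (GRCm38.p6), where all 10 arms were found, and capitals mark the seed, bases 2 to 8. The first seed group held 2 of the 3p arms.
mmu-miR-200a-3p: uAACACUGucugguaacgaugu
mmu-miR-141-3p: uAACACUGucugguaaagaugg
The second seed group held 3 of the 3p arms.
mmu-miR-200b-3p: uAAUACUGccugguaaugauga
mmu-miR-200c-3p: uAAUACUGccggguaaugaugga
mmu-miR-429-3p: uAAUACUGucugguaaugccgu
The 5p arms of miR-200a and miR-200b shared a seed of their own.
mmu-miR-200a-5p: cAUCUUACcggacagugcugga
mmu-miR-200b-5p: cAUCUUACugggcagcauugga
No other miRNA on the array carried one of these seeds, among the 867 of 1136 that had a sequence in the reference. Over the first 22 bases, miR-200a-3p and miR-141-3p differed at 2 positions, and miR-200b-3p and miR-200c-3p also at 2, while the other pairs of 3p arms differed at 4 or 5. Whether probes for arms this alike share part of their signal was not tested.

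The genes lie in 2 clusters, both on the minus strand. The genes of miR-200b, miR-200a and miR-429 lie within 1827 bases on chromosome 4, where the mature 3p arms occupy chr4:156055685-156055706, chr4:156054911-156054932 and chr4:156053916-156053937. All 3 of these hairpins fall within the span of the long non-coding RNA gene Gm13648. The genes of miR-200c and miR-141 lie within 470 bases on chromosome 6, with their 3p arms at chr6:124718324-124718346 and chr6:124717917-124717938, between the protein-coding genes Phb2 and Ptpn6 and inside neither. The gene table gave spans only, so exon and intron were not resolved.

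Signals are log2 of the background-subtracted spot signal, scaled between arrays of 1 tissue and summarized by the brightest probe of each miRNA. A floor stands for signals that could not be measured, at a log2 value of 4.60 (a scaled signal of 24.3) in the nucleus accumbens. Levels of different miRNAs rest on different probes and are not set against each other. Between 349 and 392 miRNAs were well above background per nucleus accumbens array, and no 2 arrays held identical values. All 8 neuronal miRNAs checked as markers of the labelled tissue were well above background on all 7 arrays, with summed scaled signals of 121400 to 152200 in high-active and 109700 to 158300 in low-active mice. The 7 arrays came from 3 slides, with 0 high-active and 1 low-active array on slide 1, 1 and 1 on slide 2, and 3 and 1 on slide 3. Nothing in the labels gives separate extractions or dissection days.

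In the nucleus accumbens, the family was bright on 4 arrays, barely measurable on 1 and not well above background on 2. The bright arrays came from both strains, 3 from high-active mice (223, 225 and 227) and 1 from a low-active mouse (197). The remaining high-active mouse (224) and the remaining low-active mice (194 and 195) gave the low arrays. Of the 10 arms, 8, 3, 7 and 7 were well above background on the high-active arrays of mice 223, 224, 225 and 227, and 0, 0 and 6 on the low-active arrays of mice 194, 195 and 197.

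Among the chromosome 4 members, mmu-miR-200a-3p had log2 signals of 13.08, 6.06, 11.85 and 12.61 on the high-active arrays of mice 223, 224, 225 and 227, against 11.06 on the low-active array of mouse 197 and values not well above background on those of mice 194 and 195. On the linear scale the brightest of these arrays had a scaled signal of 8631 and that of mouse 224 had 66.61. mmu-miR-200b-3p gave 12.55, 5.63, 11.83 and 12.55 on the high-active arrays in the same order of mice, against 10.86 on the low-active array of mouse 197. It too was not well above background on the other 2 low-active arrays. mmu-miR-429-3p, which shares the seed of miR-200b-3p, followed with 12.26, 5.33, 11.32 and 12.18 in high-active mice, against 10.54 in low-active mouse 197 and values not well above background in the rest. For these 3 members mouse 224 lay far below the other high-active mice yet above the 2 lowest low-active mice. Low-active mouse 197 lay far above high-active mouse 224, so the strains overlapped.

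The chromosome 6 members had the same pattern with a smaller measurable span. mmu-miR-200c-3p had log2 signals of 10.36, 9.65 and 10.45 on the high-active arrays of mice 223, 225 and 227, against 8.81 on the low-active array of mouse 197. On the arrays of mice 224, 194 and 195 it was not well above background, with scaled signals of 8.336, 5.389 and 6.162. mmu-miR-141-3p had 9.62, 8.33 and 8.98 on the same 3 high-active arrays, against 7.72 for low-active mouse 197, and was not well above background on the same 3 arrays as miR-200c-3p. High-active mouse 224 could therefore not be told from low-active mice 194 and 195 by these 2 members.

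The 5p arms, the strands of the hairpins that are usually discarded, were near the floor. mmu-miR-200b-5p had log2 signals of 6.76, 6.22 and 6.89 on the high-active arrays of mice 223, 225 and 227, against 5.31 on the low-active array of mouse 197. mmu-miR-200a-5p was well above background only on those 3 high-active arrays, at 5.55, 4.95 and 5.38, and miR-141-5p only on that of mouse 223, at the floor. miR-200c-5p and miR-429-5p were not well above background on any of the 7 arrays. The arrays on which 5p arms were measured were all among the 4 where the 3p arms were bright.

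**Figure D1:**
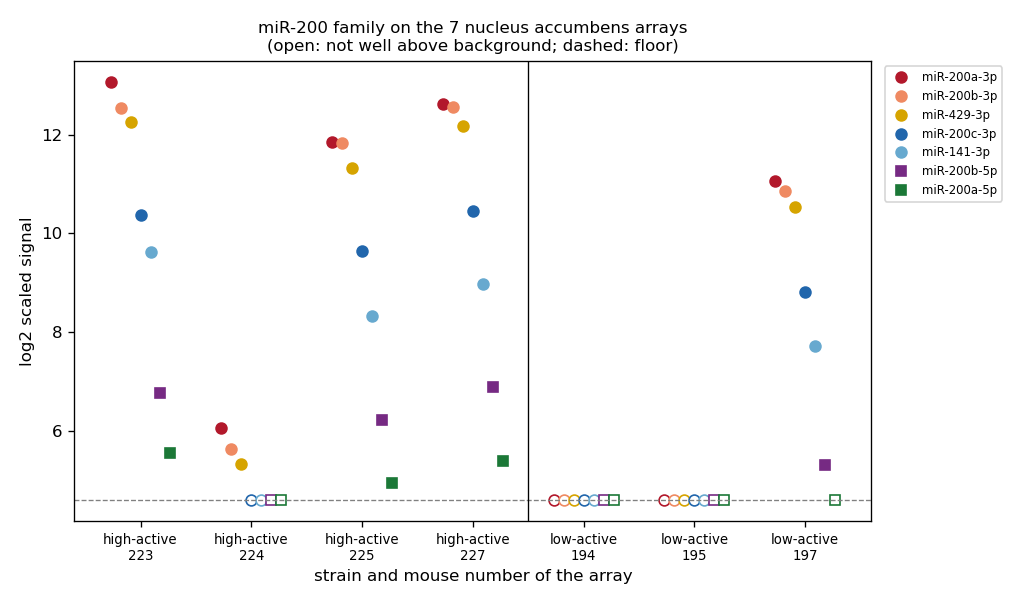
Log2 scaled signal (vertical axis) of 7 miR-200 family arms on the 7 nucleus accumbens arrays, high-active mice left of the line and low-active mice right of it. Circles are 3p arms, squares are 5p arms, open symbols were not well above background and lie on the dashed floor at 4.60. All 5 3p arms were high on the arrays of mice 223, 225, 227 and 197 and low or at the floor on those of mice 224, 194 and 195.

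The spread that chose the family was largest for the chromosome 4 members. Over the 7 arrays the range was 8.47 log2 for miR-200a-3p, 7.95 for miR-200b-3p and 7.66 for miR-429-3p. These ranges are lower bounds, because the lowest arrays are at the floor. Just outside 6 log2 lay miR-200c-3p with 5.85, followed by miR-141-3p with 5.02, while miR-200b-5p had 2.29 and miR-200a-5p 0.95. Of 404 miRNAs well above background on at least 2 of these arrays, 4 ranged over more than 6 log2 and 3 of those were family members, against a median range of 0.80. The family member with the narrowest range past 6 log2 was miR-429-3p, and the one miRNA outside the family past it was miR-96-5p with 6.85.

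**Figure D2:**
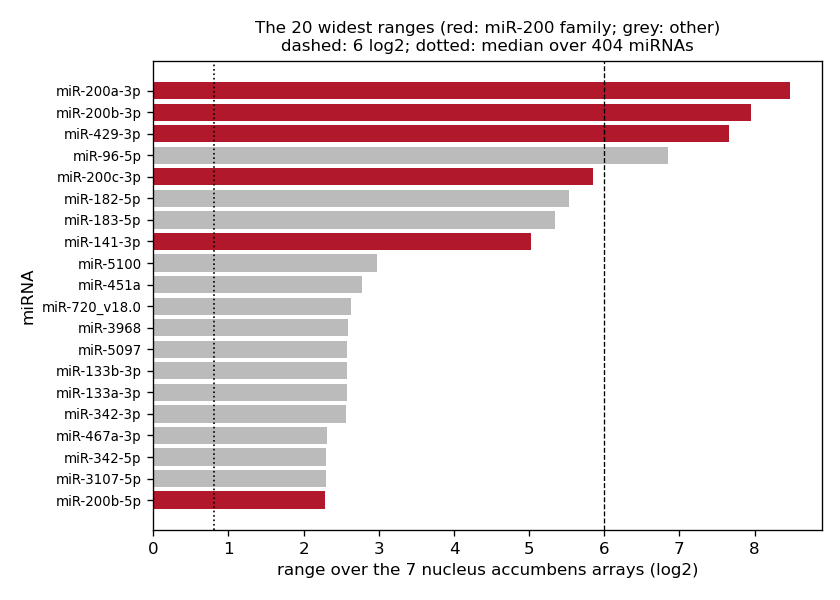
Range of the log2 scaled signal over the 7 nucleus accumbens arrays (horizontal axis) for the 20 miRNAs with the widest ranges, miR-200 family in red and other miRNAs in grey. The 5 3p arms of the family are among the first 8 bars, the other 3 being miR-96-5p, miR-182-5p and miR-183-5p. The dashed line is at 6 log2 and the dotted line at the median range of 0.80.

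The members moved together from array to array, within clusters and between them. Mouse 223 exceeded mouse 224, both high-active, by 6.91 to 7.02 log2 for the 3 members measured on both arrays. Over 354 other miRNAs measured on these 2 arrays, 90% of the same differences lay between -0.49 and 0.56. Low-active mouse 197 exceeded high-active mouse 224 by 5.00 to 5.22 log2 for the same 3 members, where 90% of 359 other miRNAs lay between -0.33 and 0.93. The family was chosen for its spread between these same arrays, so both contrasts follow from that choice and are not a test. High-active mouse 225 exceeded low-active mouse 197 by 0.61 to 0.97 for all 5 3p arms. For the last pair the family's values overlapped the upper end of the other 350 miRNAs, 90% of which lay between -1.04 and 0.73.

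The order of the bright arrays was nearly the same for every 3p arm. Mouse 223 was highest for miR-200a-3p, miR-429-3p and miR-141-3p, and mouse 227 was highest for miR-200b-3p and miR-200c-3p. The difference of mouse 223 minus mouse 227 was -0.09 to 0.64 log2 over the 5 arms. After these 2, mouse 225 was next and low-active mouse 197 was the lowest of the 4 for all 5 arms. Each 3p arm was read by 2 probes with 40 spots in all per array, and both probes gave the same order of arrays for each of the 5 arms. On arrays where a 3p arm was well above background, the standard error over its spots was 0.01 to 0.04 log2, and no spot was saturated. This is the technical error within 1 array and says nothing of the spread between mice. For miR-200b-3p the difference of mouse 223 minus mouse 227 (-0.01) was within it.

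Differences between members within an array were then followed over arrays, and their spread rather than their size is given, since each member has its own probes. Between miR-200b-3p and miR-429-3p this difference varied by 0.23 log2 over the 5 arrays where both were measured. Between miR-429-3p and miR-200a-3p it varied by 0.38, and between miR-200b-3p and miR-200a-3p by 0.51, each over 5 arrays. Between miR-200b-3p of chromosome 4 and miR-200c-3p of chromosome 6, which share a seed, it varied by 0.13 over 4 arrays. Between miR-141-3p and miR-200a-3p, the pair with the other seed on the 2 chromosomes, it varied by 0.29 over 4 arrays. The neighbors miR-200c-3p and miR-141-3p varied most among the 3p pairs taken, by 0.73 over 4 arrays. The mean of the 3 chromosome 4 arms minus the mean of the 2 chromosome 6 arms varied by 0.18 over the 4 bright arrays. The arrays themselves differed by up to 2.01 log2 for a 3p arm. Both pairs taken across the chromosomes differ at only 2 of the first 22 bases, and the part of shared probe signal in these spreads was not tested. The 5p arm of miR-200b followed its 3p arm to within 0.24 over 4 arrays, and that of miR-200a to within 0.63 over 3 arrays. These points share arrays and scaling, and no correlation over arrays is given because the arrays fall into separate clusters.

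Outside the family, the miRNAs whose pattern was most like it were those of the miR-183 cluster, known from sensory cells of the eye, ear and nose. Likeness was measured as the root mean square difference from the mean of the 5 3p arms over the 7 arrays, each centered on its own mean, among 397 candidates. It was 0.26 log2 for miR-96-5p, 0.57 for miR-182-5p and 0.61 for miR-183-5p, against a median of 3.07 over the candidates and 0.36 to 0.99 for the family's own 3p arms, which entered the mean. The next were miR-183-3p with 2.49 and miR-342-5p with 2.54, little below the 3.03 that an miRNA with no variation would have. The measure also counts differences in the size of the variation, and the family's own miR-200b-5p and miR-200a-5p had 2.15 and 2.74. miR-183-3p was well above background on the 4 bright arrays alone. Its log2 signals were 6.16, 5.38 and 6.18 for high-active mice 223, 225 and 227 and 4.65 for low-active mouse 197. The 3 arms most like the family are encoded within 3771 bases on chromosome 6 of GRCm38.p6. They lie inside the span of the long non-coding RNA gene Mirc35hg, at chr6:30169506-30169528 for miR-96-5p, chr6:30165962-30165986 for miR-182-5p and chr6:30169711-30169732 for miR-183-5p. Their sequences are shown because they carry other seeds than the miR-200 family, again in capitals.
mmu-miR-96-5p: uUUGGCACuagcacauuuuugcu
mmu-miR-182-5p: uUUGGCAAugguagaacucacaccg
mmu-miR-183-5p: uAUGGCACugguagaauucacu

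miR-96-5p had log2 signals of 11.45, 4.61, 9.99 and 10.81 on the high-active arrays of mice 223, 224, 225 and 227, against 9.59 on the low-active array of mouse 197 and values not well above background on those of mice 194 and 195. miR-182-5p had 10.14, 9.35 and 10.10 on the high-active arrays of mice 223, 225 and 227, against 8.56 for low-active mouse 197, and miR-183-5p had 9.91, 9.62 and 9.95, against 8.59. Neither was well above background on the arrays of mice 224, 194 and 195. Set against the mean of the 5 family 3p arms on the 4 bright arrays, miR-182-5p varied by 0.20 log2, miR-96-5p by 0.48 and miR-183-5p by 0.69. The other miRNAs with wide ranges did not follow the family. miR-5100, with a range of 2.98, was lowest on the array of mouse 223, and miR-451a of red blood cells, with a range of 2.77, was highest on that of mouse 194.

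**Figure D3:**
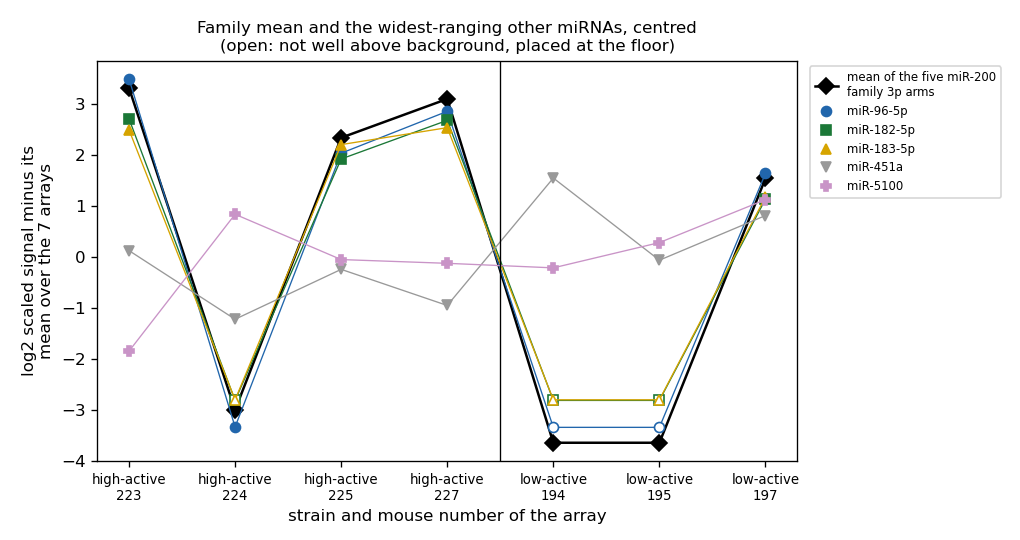
Log2 scaled signal minus its own mean over the 7 nucleus accumbens arrays (vertical axis) for the mean of the 5 3p arms of the family (black) and for the 5 other miRNAs with the widest ranges, high-active mice left of the line and low-active mice right of it. Open symbols were not well above background. miR-96-5p, miR-182-5p and miR-183-5p lay with the family on every array, while miR-5100 and miR-451a had other patterns.

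These 3 arms, already picked above for their likeness, belong to a list of 6 epithelial miRNAs other than the miR-200 family, and the rest of that list did not vary with them. The summed scaled signal of this list was 5092, 240.3, 2682 and 4158 on the high-active arrays of mice 223, 224, 225 and 227, against 254.2, 281.3 and 1766 on the low-active arrays of mice 194, 195 and 197. The miR-183 cluster arms carried this pattern, with 4882 of the 5092 on the array of mouse 223. The other 3 members summed to 200.9 to 271.6 on the high-active arrays and to 233.4 to 268.2 on the low-active arrays, with no separation of bright from dim arrays. Among them miR-203-3p, an miRNA of skin, had log2 signals of 5.21 to 5.89 in high-active and 5.39 to 6.00 in low-active mice. miR-205-5p, a defining miRNA of stratified epithelium, was not well above background on any nucleus accumbens array, and miR-31-5p had log2 signals of 7.34 to 7.72 in high-active and 7.45 to 7.66 in low-active mice. The part of epithelial tissue or of the dissection in the family's levels was not tested, and in bulk RNA fewer cells of a type and less RNA per cell cannot be told apart.

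The remaining lists did not separate the arrays as the family did. The summed signal of multiciliated cell miRNAs was highest on the arrays of low-active mouse 197 (881) and high-active mouse 224 (598.6), and 275.9 to 338.8 elsewhere, although the family was high on the first and low on the second. For low-active mouse 197 the muscle miRNAs summed to 2330, against 462.5 to 613.4 on the other 6. The 4 endocrine and pituitary miRNAs summed to 1594 to 3047 in high-active and 4743 to 6202 in low-active mice. By the strain test described next, 3 of these 4 were lower in high-active mice. Over all miRNAs tested, 27 of 391 passed (6.91%), 23 of them lower and 4 higher in high-active mice. Choroid plexus miRNAs summed to 3150 to 4646 in high-active and 2876 to 5632 in low-active mice, vascular miRNAs to 3254 to 4191 and 3512 to 3747, leukocyte miRNAs to 991.6 to 1391 and 939.5 to 1165, and red-cell miRNAs to 2002 to 5080 and 4450 to 13610. Oligodendrocyte miRNAs summed to 3173 to 4095 in high-active and 2076 to 3394 in low-active mice, and 1 of 3 was higher by the same test.

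The strain comparison asked whether high-active and low-active mice differed in these miRNAs. The choice of members did not use the strain labels, but it did use the signals of these same nucleus accumbens arrays. In the nucleus accumbens 0 of the 7 family arms tested passed limma's test at a Benjamini-Hochberg adjusted p under 0.05, and 1 had an unadjusted p under 0.05. Over all miRNAs 27 of 391 passed, or 6.91%, 4 of them higher and 23 lower in high-active mice, and 77 had an unadjusted p under 0.05. The median difference, high-active minus low-active, was 2.76 log2 over the 7 arms and -0.11 over all miRNAs tested. The arms move together and the family was chosen for its wide spread over these arrays, so this contrast describes the choice and is not a test. The other 3 arms were well above background on too few arrays to enter the test.

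The largest fitted difference was that of miR-200a-3p, with a mean log2 signal of 10.90 ± 3.27 over the high-active arrays (SD, n = 4) and 6.76 ± 3.73 over the low-active arrays (SD, n = 3). Its difference was 4.14 ± 2.15 (SE), with a 95% interval of -0.86 to 9.15 and an adjusted p of 0.363 by limma. The 3p arms stood at the floor on the low-active arrays of mice 194 and 195, so their fits depend on the floor. With a floor of 1 the difference of miR-200a-3p was 5.38, with an adjusted p of 0.31 by limma. miR-200b-3p averaged 10.64 ± 3.36 over the high-active arrays (SD, n = 4) and 6.69 ± 3.61 over the low-active arrays (SD, n = 3), a difference of 3.95 with an adjusted p of 0.381 by limma. For miR-429-3p, miR-200c-3p and miR-141-3p the differences were 3.70, 2.76 and 2.24, with adjusted p-values of 0.392, 0.409 and 0.4 by limma. All of these intervals included 0 as well as differences larger than 5 log2 in favor of high-active mice, so the arrays fix neither the size nor the presence of a difference. miR-200b-5p differed by 1.28 ± 0.54 (SE), with an unadjusted p of 0.0468 and an adjusted p of 0.244 by limma. miR-200a-5p entered the test only through 3 high-active arrays, and was not well above background on that of high-active mouse 224 nor on the 3 low-active arrays. Its fitted difference of 0.52 log2 (adjusted p of 0.267 by limma) rests on the floor in both strains, was 0.02 with normexp background and 0.21 with the mean of all probes, and is given with no fold. For each of the 7 arms the range of the high-active arrays overlapped that of the low-active arrays.

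The spread within strains was wide. The residual SD of the fit was 0.33 to 3.46 log2 for the 7 arms and 0.24 at the median of all 391 miRNAs. The family was chosen for its spread over these same arrays, so this contrast describes the choice and is not a test. Without the array of high-active mouse 224, the difference of miR-200b-5p was 1.78 with an adjusted p of 0.0135 by limma, and those of the 5 3p arms were 3.33 to 5.75 with adjusted p-values of 0.0901 to 0.116. In that fit miR-200b-5p was still not well above background on the low-active arrays of mice 194 and 195. Without the array of low-active mouse 197, miR-200a-3p differed by 6.29 with an adjusted p of 0.122 by limma, and none of the arms passed. Slide and strain were unevenly mixed. With slide as a block, the difference of miR-200a-3p was 2.61 with an adjusted p of 0.718 by limma. Within slide 2, high-active mouse 225 exceeded low-active mouse 195 by 7.24 log2, whereas within slide 3, high-active mice 223, 224 and 227 averaged 0.48 below low-active mouse 197 (-0.48). On slide 3 the difference was also below 0 for miR-200b-3p (-0.61), miR-429-3p (-0.61) and miR-200c-3p (-0.33), and was 0.01 for miR-141-3p. On this slide mouse 224 alone lay below mouse 197. Over the 5 3p arms mouse 223 exceeded mouse 197 by 1.56 to 2.01 log2, and mouse 227 exceeded it by 1.26 to 1.70.

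**Figure D4:**
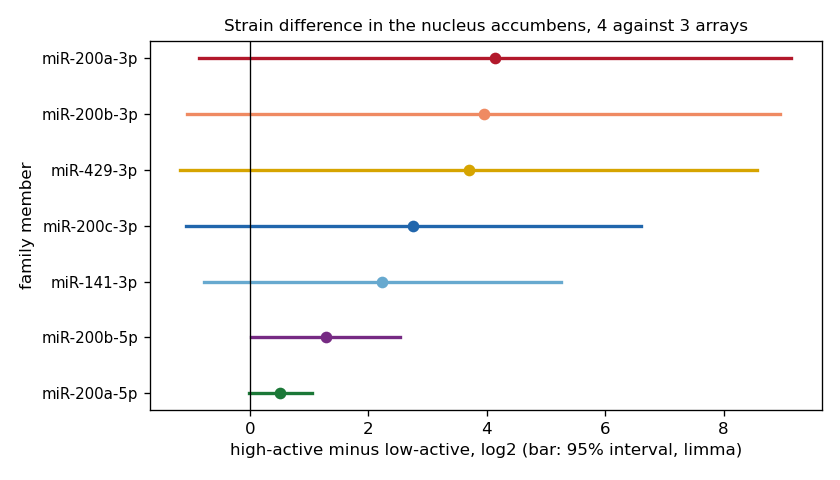
High-active minus low-active difference in log2 scaled signal (horizontal axis) in the nucleus accumbens for the 7 family arms tested, with 95% intervals from limma over 4 high-active and 3 low-active arrays. The intervals of the 5 3p arms all include 0, with estimates from 2.24 to 4.14, and none of the 7 arms passed at an adjusted p under 0.05.

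In muscle the family was not measurable. None of the 10 arms was well above background on any of the 6 soleus or 6 EDL arrays, 0 of 60 pairs of arm and array in each tissue, against 31 of 70 in the nucleus accumbens. The highest scaled signal of any arm was 5.90 in the soleus, that of miR-200a-5p, and 5.96 in the EDL, that of miR-200b-5p, under the floors of 24.2 and 18.7. miR-200a-3p, with 8631 on its brightest nucleus accumbens array, lay between -3.60 and 1.31 in the soleus and between -1.28 and 0.30 in the EDL. miR-429-3p lay between -0.08 and 2.12 in the soleus and between -0.03 and 1.92 in the EDL. Arrays were scaled within a tissue, so these levels are not compared between tissues beyond whether they were measurable.

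Mice whose nucleus accumbens was bright had no measurable family signal in muscle. High-active mouse 223 gave a soleus array, high-active mice 225 and 227 gave arrays of both muscles and low-active mouse 197 gave an EDL array, and 0 arms were well above background on each. All 5 muscle-defining miRNAs were well above background on the 6 soleus arrays, and 4 or 5 of them on the EDL arrays, with summed signals of 423700 to 563500 in high-active and 422800 to 533300 in low-active soleus, and of 598000 to 661400 in high-active and 443500 to 614700 in low-active EDL. miR-96-5p, miR-182-5p and miR-183-5p were also not well above background on any muscle array. In contrast to the nucleus accumbens, the epithelial miRNA miR-205-5p was well above background in muscle. This held on 1 of 4 high-active and 2 of 2 low-active soleus arrays and on 0 of 2 high-active and 4 of 4 low-active EDL arrays. miR-203-3p of the same list was well above background on all low-active muscle arrays and on high-active soleus arrays of mice 224, 225 and 227. It was so in the nucleus accumbens too. These 2 list members were tested in each muscle, and 0 passed between strains. The study, with its own processing and test, reported miR-205 as lower in the EDL of high-active mice. No family arm could be tested between strains in muscle, where 4 of 342 miRNAs passed in the soleus (1.17%) and 1 of 330 in the EDL (0.303%).

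**Figure D5:**
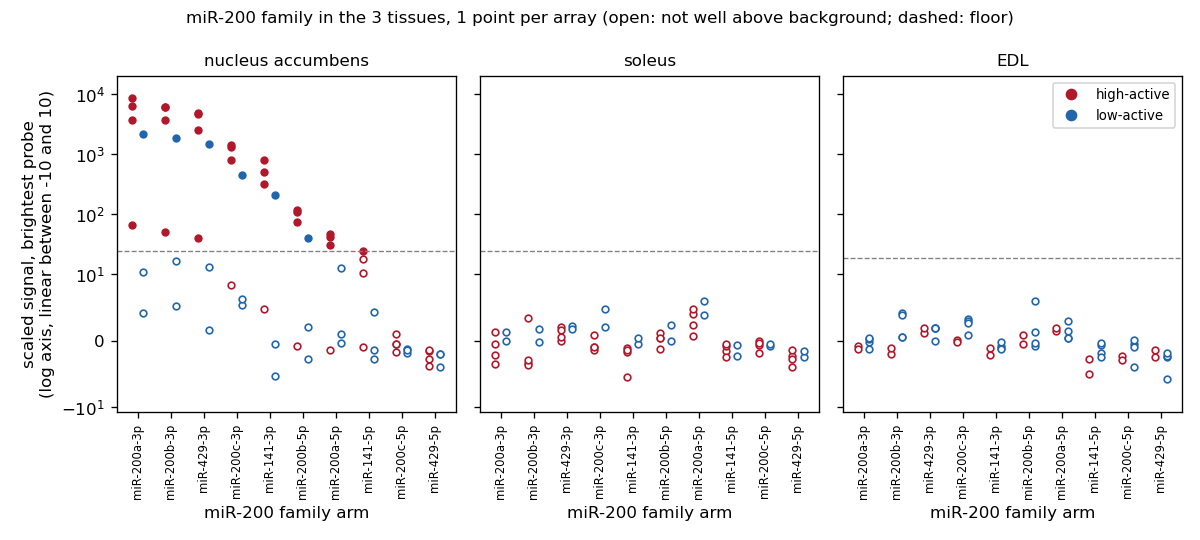
Scaled signal of the brightest probe (vertical axis, logarithmic above 10 and below -10, linear between) of the 10 family arms, 1 point per array, in the nucleus accumbens, soleus and EDL, high-active in red and low-active in blue. Filled points were well above background and dashed lines are the floors of 24.3, 24.2 and 18.7. Filled points occur in the nucleus accumbens panel alone, and all muscle points lie under 6.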

How the data were processed

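Total RNA was labelled with cyanine 3 and hybridized to Agilent mouse miRNA arrays. The deposited scanner files hold spot intensity from Feature Extraction 10.7.1.1, background-subtracted by the authors' software, over 45440 spots per array for 2889 probes. The authors' table of log2 values, shifted per array and centred on each row's median within a tissue, was used only as an alternative. Intensities were averaged over non-outlier spots per probe, scaled within tissue to the 75th percentile of probes detected on all arrays, floored at the median of the arrays' lowest detected signals, and log2 transformed. The brightest probe stood for a miRNA. A probe was well above background when over 0.5 of its spots carried that flag. limma 3.58.1 in R 4.3.3 compared strains within tissue over miRNAs well above background on at least 3 (nucleus accumbens) or 2 (muscle) arrays, with Benjamini-Hochberg adjustment. Arrays were tested as separate mice, and the number of arrays limits precision. The script was tested on simulated data. Members, the 10 marker lists and the tests were chosen with earlier results of these data known. Named were all family arms, the 5 other miRNAs most like them, the 5 others with the widest ranges and the 2 brightest of a list. miR-203-3p, miR-205-5p and the muscle values of the miR-183 cluster were named after their values were seen. The authors dismissed some arrays for poor signal, and these were not analysed here.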

Additional observations from a re-analysis of the deposited data

Results flagged for a closer look

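In the high-active nucleus accumbens, the array of mouse 224 stood apart from the other 3 as the lowest. Its gap to the nearest array, as a share of the group's range, was 0.895 for miR-200b-3p, 0.862 for miR-200c-3p and 0.864 for miR-429-3p, past Dixon's 95% critical value for 4 samples. miR-200a-3p came to 0.825, under that value. Of 7 arms examined 3 passed, but the family was chosen for its spread between these same arrays and the arms share them, so these ratios describe that choice, no chance rate applies, and they are not a test. The log2 signals behind these ratios were 5.63 for mouse 224 and 11.83 for the nearest array for miR-200b-3p, and 5.33 and 11.32 for miR-429-3p, while miR-200c-3p was at the floor on the array of mouse 224. Groups of 3 or fewer arrays were not examined.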

How the results depend on the processing

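The count of family arms past the strain test in the nucleus accumbens was 0 under each of the 13 other settings. With 1 array left out at a time it was 0 to 1, and the 1 was miR-200b-5p without the array of high-active mouse 224. The median range of the 5 3p arms was 7.66 log2, and 5.41 to 10.18 under the other settings except the authors' table, where it was 14.77 and the cause was not tested. With 1 array left out it was 7.57 to 7.80. No fitted difference of the 7 arms changed sign, with 16 to 20 fits per arm. The values within slide 3 below 0, where high-active mouse 224 alone lay under low-active mouse 197, stand beside the strain result. The count of all miRNAs past the test moved more, 4 to 31 in the nucleus accumbens against 27, 0 to 52 in the soleus against 4 and 0 to 9 in the EDL against 1 under the other settings, and the cause was not tested. Leaving out 1 array gave 13 to 31, 0 to 7 and 0 to 4 in these tissues. In muscle 0 family arms passed under any of these settings. The normexp alternative, with an offset of 50, used the median spot signal. No paired analysis was possible because each mouse belongs to 1 strain and the strains share no mouse numbers. With 7 arrays and 2 of them without measurable 3p signal, ranges that end at the floor are lower bounds. Fitted differences with floored arrays in both strains are no bounds.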
